A study of Mus musculus with 8 samples.

Results

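The TGF-β response of RGC-32 KO astrocytes is described here from 4 of the 8 RNA sequencing libraries of the series, 2 from RGC-32 KO cultures given TGF-β (RGC-32 KO TGF-β) and 2 from RGC-32 KO cultures left untreated (RGC-32 KO control). They were chosen by the genotype and treatment that their labels state, and the comparison asks which TGF-β programmes ran in cells without RGC-32. The cells were primary brain astrocytes of C57BL/6 pups at post natal day 1, and for these 4 libraries the pups carried the RGC-32 knock-out. The meninges had been removed, the brain cells had been grown in medium with serum, oligodendrocyte precursors and neurons had been shaken off, and serum had been withdrawn overnight before 10 ng/ml TGF-β was added for 24 h. The other 4 libraries, WT control and WT TGF-β, came from cultures of the same strain, age and handling, and they appear below only beside the RGC-32 KO values. Each group has 2 biological replicates, and the labels do not say which or how many pups went into each, so the p-values measure the spread between these cultures. Replicates named without a genotype are RGC-32 KO cultures, and stimulated means given TGF-β.

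TGF-β binds paired serine/threonine kinase receptors that phosphorylate SMAD2 and SMAD3, which enter the nucleus with SMAD4 and switch on both extracellular matrix genes and their own inhibitors. In the injured brain, TGF-β is one of the signals under which astrocytes become reactive, change their cytoskeleton and lay down scar matrix. RGC-32, encoded by Rgcc, is itself a TGF-β target and has been described as a partner of SMAD3, which is the reason to ask what the pathway does in its absence.

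The 4 RGC-32 KO libraries held 14944949 to 15915399 counts on genes. Levels are given in CPM, counts relative to library size after TMM scaling, and they are not corrected for transcript length, so they are compared within a gene and not between genes. Sums, shares and rankings of CPM below are of counts and not of transcripts. A gene is said to have risen or fallen when its log2 fold change was at least 0.6 in size with an adjusted p under 0.05 in edgeR's quasi-likelihood test, adjusted by Benjamini-Hochberg over the 13509 genes tested. In RGC-32 KO astrocytes 893 genes rose, 6.61% of those tested, and 666 fell, 4.93%, or 388 without control replicate 2, 393 without stimulated replicate 1 and 436 without stimulated replicate 2, and the median log2 fold change over all genes was 0.00. The share of the called genes that rose was 57.3%. It was 45.5% under upper quartile scaling, which moved the median of all genes to -0.08, and 37.2% and 44.8% on the deposited FPKM at pseudocounts of 0.1 and 1, with medians of -0.13 and -0.11. The targeted gene checks the labels only in part, since Rgcc still had 61 and 28 counts in the RGC-32 KO controls and 64 and 26 with TGF-β. Each of these counts was below every WT count of Rgcc, of which the lowest was 80. RNA was measured in bulk, so fewer cells of a type and less RNA per cell cannot be told apart in what follows.

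The 820 distinct genes of 47 lists, each a pathway or protein class, were followed through this response, and 771 of them were tested. In RGC-32 KO astrocytes 205 of these rose and 48 fell, 26.6% and 6.23% of them, beside 6.61% and 4.93% of all genes tested. The lists are TGF-β biology for the most part and were written with earlier results of these data known, so nothing is read from the excess. The plot of log2 fold changes by list gives every member tested.

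**Figure D1:**
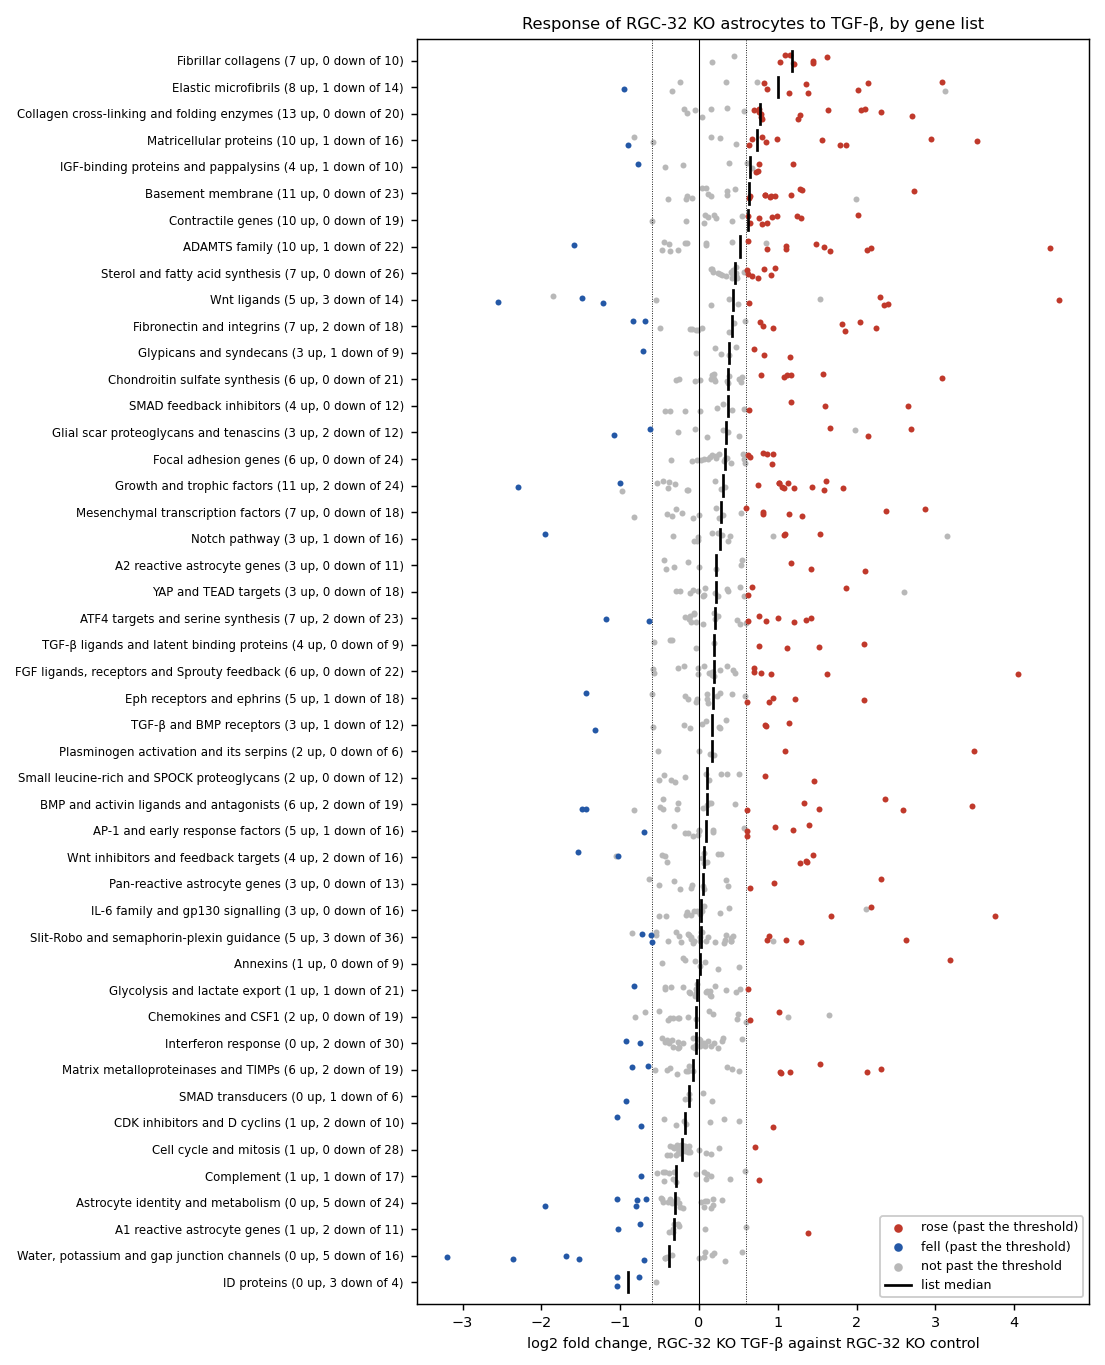
Response of RGC-32 KO astrocytes to TGF-β in each of 47 gene lists. Each point is 1 gene, placed by its log2 fold change of RGC-32 KO TGF-β against RGC-32 KO control on the horizontal axis, red where it rose, blue where it fell and grey where it did not pass the threshold, and the black bar is the median of the list. Fibrillar collagens stand at the top with a median of 1.18 and the ID proteins at the bottom with -0.90.

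Feedback inhibitors of the pathway rose in part in RGC-32 KO astrocytes. Of 12 such genes tested, 4 rose and 0 fell, with a median log2 fold change of 0.37. Pmepa1, a membrane protein that sequesters receptor-activated SMADs, stood at 184 and 119.6 CPM in the control libraries and 861 and 1049 CPM with TGF-β (log2 change 2.65, SE 0.24, edgeR adjusted p = 0.000395). Skil, the SMAD co-repressor SnoN, went from 72.6 and 67.8 to 201 and 226 CPM (log2 change 1.60, SE 0.10, edgeR adjusted p = 0.000137). For Smad7, the inhibitory SMAD that recruits ubiquitin ligases to the receptor, the control libraries had 28.7 and 30.1 CPM and those with TGF-β 64.4 and 67.6 CPM (log2 change 1.16, SE 0.06, edgeR adjusted p = 7.28e-05). In each of these genes both stimulated cultures lay above both controls, which was so for 34.3% of all genes tested. The 2 replicates of a group differed less than the groups. Bambi, a decoy receptor, did not pass the threshold (log2 change -0.18, SE 0.09, edgeR adjusted p = 0.17).

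Genes for ligands, latency proteins and receptors changed in part. Among 9 ligand and latent binding protein genes 4 rose and 0 fell. Ltbp2, a matrix protein of the latent TGF-β binding family, went from 278 and 385 to 1350.3 and 1476 CPM (log2 change 2.09, SE 0.14, edgeR adjusted p = 0.00016), and Ltbp1, which anchors latent TGF-β in the matrix, from 23.5 and 16.4 to 50.7 and 63.3 CPM (log2 change 1.52, SE 0.22, edgeR adjusted p = 0.00237). The ligand gene Tgfb1 rose from 71.4 and 50.4 to 114 and 149 CPM (log2 change 1.11, SE 0.23, edgeR adjusted p = 0.00994), a call that was lost without control replicate 2 (0.88, adjusted p = 0.064) and without stimulated replicate 2 (0.89, adjusted p = 0.065). The other ligands moved little, with log2 fold changes of -0.36 for Tgfb2 and -0.34 for Tgfb3, both under the fold limit. Of 12 receptor genes 3 rose and 1 fell. Acvr1, a type I receptor for activins and BMPs, rose by 1.14 on the log2 scale (edgeR adjusted p = 0.000478), and Tgfbr3, the co-receptor betaglycan, went from 37.4 and 43.3 down to 17.96 and 14.5 CPM (log2 change -1.31, SE 0.15, edgeR adjusted p = 0.00095). The signalling receptor Tgfbr1 was at 0.27, under the fold limit. Of the 6 SMAD transducers tested, Smad3 was at -0.18 and did not pass the threshold, while Smad9, a BMP transducer, fell by 0.93 on the log2 scale (edgeR adjusted p = 0.00595).

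The ID proteins, helix-loop-helix inhibitors of differentiation that BMP signalling maintains, fell for the most part. Of 4 genes tested, 3 fell and 0 rose, with a median log2 fold change of -0.90. Id3 stood at 291 and 259 CPM in the controls and 137 and 131 CPM with TGF-β (log2 change -1.04, SE 0.08, edgeR adjusted p = 0.000233). Id1 went from 98.9 and 93.98 to 55.1 and 59.2 CPM (log2 change -0.76, SE 0.06, edgeR adjusted p = 0.000322) and Id4 from 169.7 and 216 to 101 and 86.3 CPM (log2 change -1.04, SE 0.17, edgeR adjusted p = 0.00429). In all 3 genes the groups did not overlap, which over all genes was so for 32.9% with TGF-β lower and 34.3% with TGF-β higher.

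Activin and BMP regulators and genes of the urokinase system changed in part. Of 19 ligands and antagonists of activins and BMPs, 6 rose and 2 fell. Inhba, the activin A subunit, rose from 32.02 and 44.4 to 193 and 201 CPM (log2 change 2.36, SE 0.25, edgeR adjusted p = 0.000655). The activin antagonist Fstl3 went from 11.5 and 9.88 to 62.1 and 66.5 CPM (log2 change 2.59, SE 0.16, edgeR adjusted p = 0.000123). Thus genes for activin and for an activin antagonist were higher in the same cultures. Bmp4 was at -0.49 (edgeR adjusted p = 0.0299), under the fold limit. Plaur, the urokinase receptor, rose by 1.10 (edgeR adjusted p = 0.000668), and urokinase itself, Plau, was at -0.53 without passing the threshold.

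**Figure D2:**
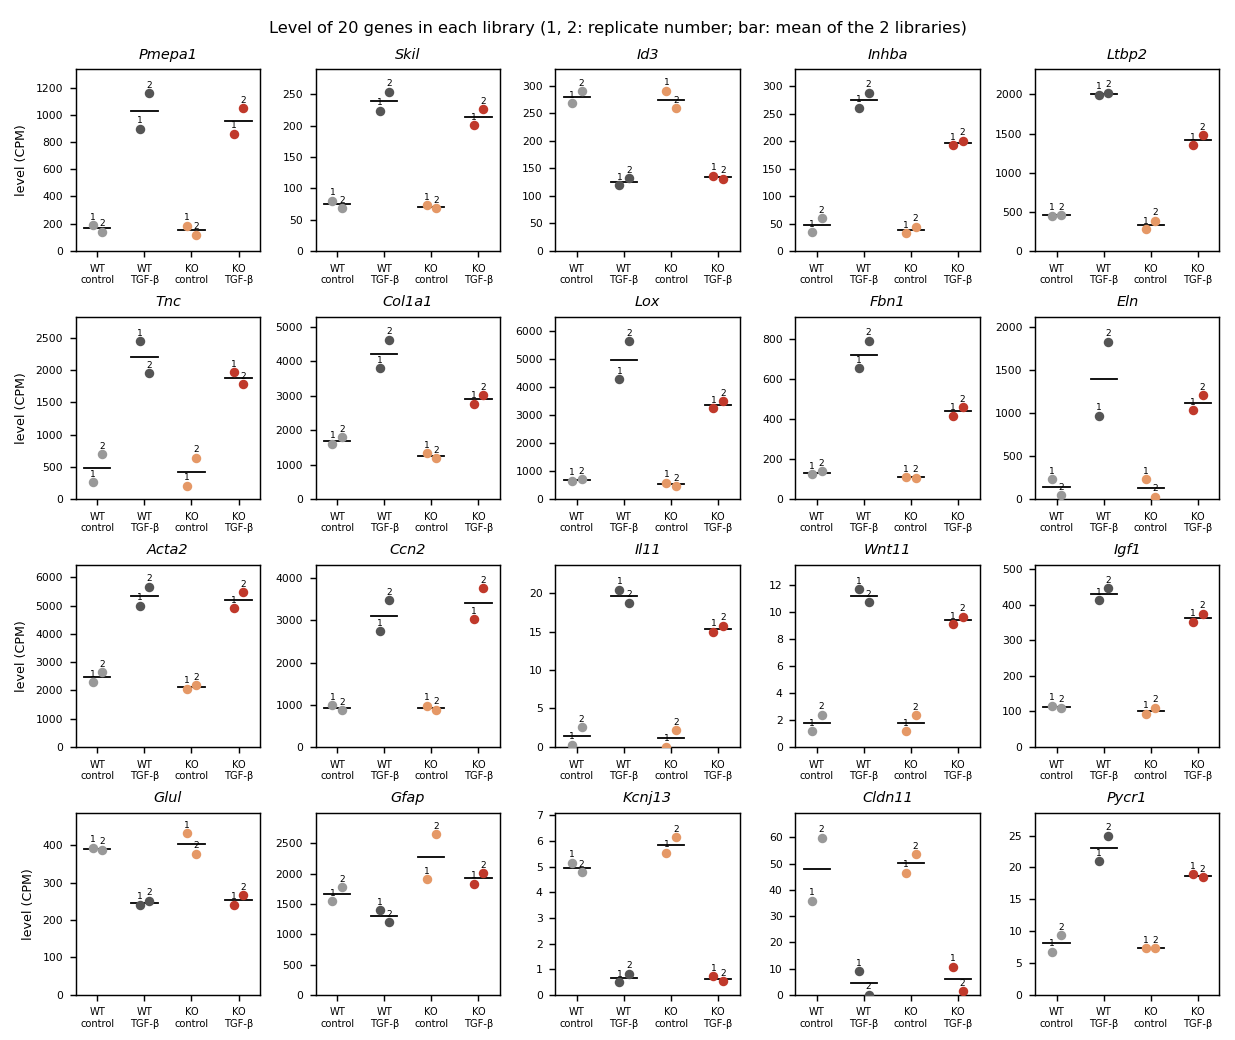
Level of 20 genes in each of the 8 libraries, in CPM on a linear axis that starts at 0, with the libraries of a group numbered by replicate and a bar at their mean. WT is shown in grey and RGC-32 KO in orange (control) and red (TGF-β). For Pmepa1 the RGC-32 KO controls lie at 184 and 119.6 CPM and the stimulated cultures at 861 and 1049 CPM, while the controls of Eln lie far apart.

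The extracellular matrix took up a larger part of the counts after TGF-β. Over 9 lists of matrix proteins and the enzymes that build or cut them, 148 genes were tested, of which 70 rose and 7 fell, with a median log2 fold change of 0.64. Together the genes of these lists held 3.41% and 3.39% of the counts in the RGC-32 KO controls and 5.88% and 6.21% with TGF-β. That is a ratio of the means of 1.78, and in WT cultures the ratio was 1.83. With 2 libraries against 2 an exact two-sided permutation test cannot go below a p of 0.333, so the shares are given without a test. In the plot of shares by list the stimulated libraries lie above the controls for each of the matrix lists drawn.

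**Figure D3:**
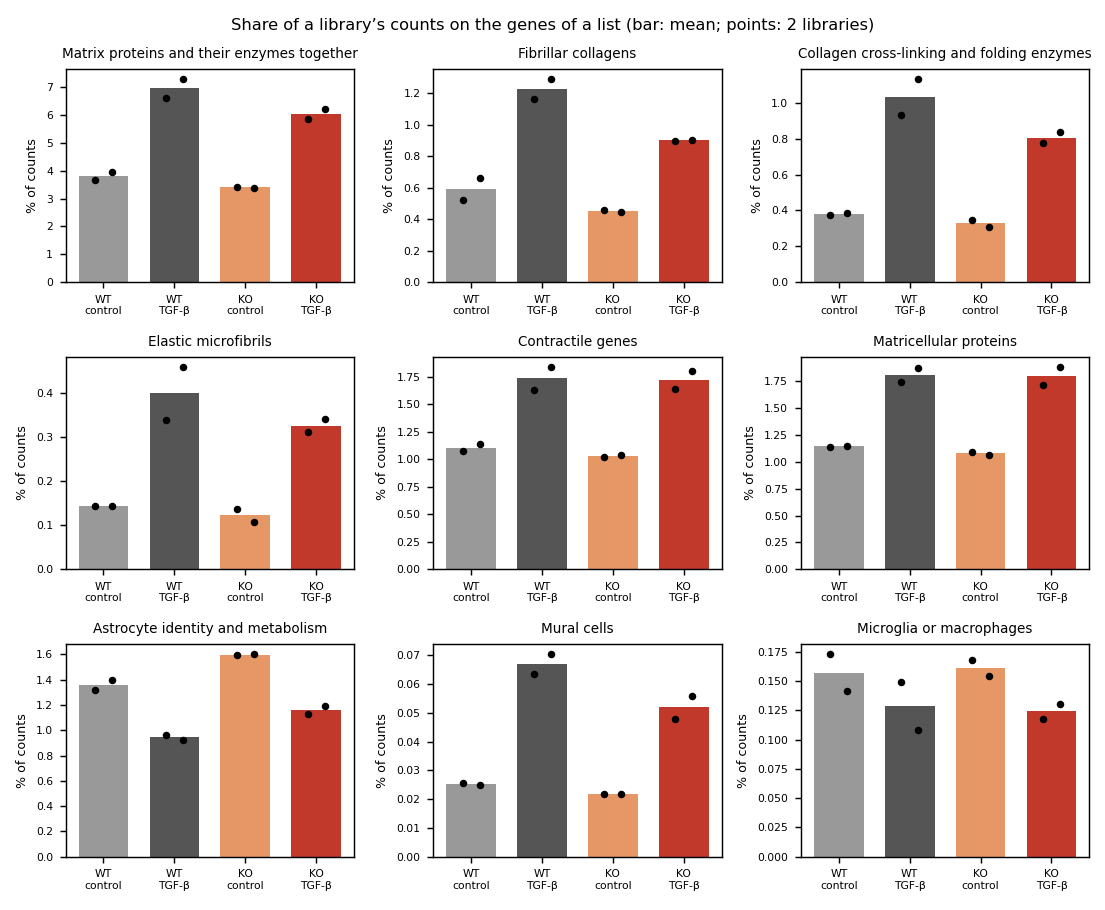
Share of each library's counts that falls on the genes of 9 lists, in percent, with bars at the mean of a group and points for its 2 libraries. The matrix lists, the contractile genes and the mural cell markers are higher with TGF-β in both genotypes, and the astrocyte identity genes lower, from 1.59% and 1.603% to 1.13% and 1.19% in RGC-32 KO.

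Fibrillar collagens, the rope-forming collagens of scars and connective tissue, rose for the most part. Of 10 genes tested 7 rose, 0 fell, and all 10 had a positive log2 fold change, with a median of 1.18. Col1a1, the main chain of type I collagen, went from 1322 and 1190.5 to 2767 and 3018 CPM (log2 change 1.20, SE 0.12, edgeR adjusted p = 0.000569), and its partner Col1a2 from 1071 and 995 to 2231 and 2186 CPM (log2 change 1.10, SE 0.13, edgeR adjusted p = 0.00111). The type V chains, which nucleate fibrils, rose further, Col5a1 by 1.45 (SE 0.11) and Col5a2 by 1.44 (SE 0.12). Col3a1 was at 0.44 and did not pass the threshold, its stimulated cultures standing apart at 1177 and 868 CPM. The share of counts on the list went from 0.456% and 0.444% to 0.894% and 0.906%. Among 14 markers of meningeal fibroblasts tested, 5 rose and 2 fell, or 3 rose without control replicate 2 or either stimulated replicate, and their summed level went from 5025 to 5261 CPM in the controls to 8279 to 8289 CPM with TGF-β. The type I collagen genes are on that list too. Of its 14 members tested 7 had a positive log2 fold change, and the values ran from -3.04 to 2.23. Pdgfrb rose by 0.89 on the log2 scale. Foxc1, Foxd1, Lum and Dcn were at -0.29, -0.36, -0.17 and -0.36, none of them past the threshold. Slc6a13 was under the filter on low counts. The part of such cells in the collagen result was not tested.

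Enzymes that fold and cross-link collagen gave the highest count of the matrix lists, with 13 of 20 tested rising and 0 falling. Lox, the lysyl oxidase that joins collagen and elastin chains, went from 582 and 447 to 3241 and 3479 CPM (log2 change 2.71, SE 0.17, edgeR adjusted p = 0.00013). Its relatives Loxl1 (119 and 69.4 to 411 and 519.8 CPM, log2 change 2.31, SE 0.26, edgeR adjusted p = 0.00095) and Loxl2 (151 and 89.2 to 443 and 589 CPM, log2 change 2.10, SE 0.25, edgeR adjusted p = 0.00118) rose as well. Serpinh1, the collagen chaperone HSP47, rose by 0.76 (edgeR adjusted p = 0.00236). The list took 0.346% and 0.310% of the counts in the controls and 0.776% and 0.838% with TGF-β, a ratio of 2.46.

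Elastic fibre genes followed the same direction, 8 of 14 rising and 1 falling, with a median of 1.01. Fbn1, the core of microfibrils that store latent TGF-β, went from 109.6 and 107 to 415 and 460.2 CPM (log2 change 2.02, SE 0.11, edgeR adjusted p = 7.69e-05). Mfap4, a microfibril-associated protein, rose from 25.8 and 27.4 to 219 and 233 CPM (log2 change 3.09, SE 0.14, edgeR adjusted p = 7.28e-05), and Fbln2 from 63.3 and 50.4 to 242 and 261 CPM (log2 change 2.15, SE 0.19, edgeR adjusted p = 0.000333). Elastin itself was not called. Eln had 231 and 25.98 CPM in the RGC-32 KO controls and 1033 and 1206 CPM with TGF-β, and the distance between its controls left a log2 fold change of 3.13 with an adjusted p of 0.0549 in edgeR. Fbn2, the fibrillin of developing tissue, rose by 0.82 (edgeR adjusted p = 0.00919), or by 0.77, adjusted p = 0.0595 without control replicate 2, where the call was lost.

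In the basement membrane, the sheet that astrocyte endfeet rest on, 11 of 23 genes rose and 0 fell, but 6 rose without stimulated replicate 2. Perlecan, Hspg2, went from 259 and 304 to 503 and 545 CPM (log2 change 0.90, SE 0.09, edgeR adjusted p = 0.000539). Col4a1, a chain of the type IV collagen network, went from 1112 and 911 to 1628 and 1979 CPM (log2 change 0.83, SE 0.15, edgeR adjusted p = 0.00606), and its call was lost without stimulated replicate 2 (0.67, adjusted p = 0.0502). Lama1, a laminin chain, had 11.2 and 2.66 CPM in the controls and 35.8 and 55.02 CPM with TGF-β (log2 change 2.73, SE 0.59, edgeR adjusted p = 0.012), with the call lost without control replicate 2 (2.02, adjusted p = 0.0564) or stimulated replicate 2 (2.36, adjusted p = 0.0652).

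Scar proteoglycans did not move as 1 group. Of 12 glial scar proteoglycans and tenascins tested, 3 rose and 2 fell, or 0 fell without stimulated replicate 1 or 2. Versican, Vcan, went from 38.1 and 52.3 to 142 and 145 CPM (log2 change 1.67, SE 0.13, edgeR adjusted p = 0.000213), and NG2, encoded by Cspg4, from 33.9 and 24.1 to 153 and 219.9 CPM (log2 change 2.69, SE 0.25, edgeR adjusted p = 0.000446). Neurocan, Ncan, was at 0.31 and did not pass the threshold. Brevican, Bcan, fell by 0.62 on the log2 scale (edgeR adjusted p = 0.0113), a call lost without stimulated replicate 1 (-0.62, adjusted p = 0.0613) or 2 (-0.65, adjusted p = 0.0573). Tenascin C, Tnc, had 206 and 641 CPM in the controls and 1972 and 1781 CPM with TGF-β (log2 change 2.15, SE 0.57, edgeR adjusted p = 0.026), and its call was lost without control replicate 1 (1.53, adjusted p = 0.0846), stimulated replicate 1 (2.07, adjusted p = 0.0826) or stimulated replicate 2 (2.20, adjusted p = 0.0726). Of the genes that rose, NG2 is a proteoglycan of precursor cells and pericytes and tenascin C an adhesion protein of embryonic and wounded tissue.

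Enzymes that build the chondroitin sulfate chains of these proteoglycans rose in part, 6 of 21 with 0 falling. Chst11, a chondroitin 4-sulfotransferase, went from 102 and 114 to 331 and 315 CPM (log2 change 1.58, SE 0.09, edgeR adjusted p = 9.32e-05). Xylt1, which starts the chain, went from 7.21 and 9.41 to 16.4 and 21.1 CPM (log2 change 1.17, SE 0.17, edgeR adjusted p = 0.00231), and the chain polymerase Chsy3 from 0.447 and 1.66 to 8.64 and 9.58 CPM (log2 change 3.08, SE 0.52, edgeR adjusted p = 0.0047). Biglycan, Bgn, a small leucine-rich proteoglycan, rose by 1.46 (edgeR adjusted p = 0.000204), while its relative decorin, Dcn, a protein that binds TGF-β, was at -0.36 and under the fold limit. Of 9 glypicans and syndecans 3 rose and 1 fell, with Gpc1 at 1.16 (edgeR adjusted p = 0.000282) and Sdc3 at 0.82 (edgeR adjusted p = 0.00254).

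Proteases of the matrix and their inhibitors changed in part. Of 22 ADAMTS genes 10 rose and 1 fell. Adamtsl2, a member without protease activity that binds fibrillin, had 1.85 and 1.48 CPM in the controls and 35.04 and 37.98 CPM with TGF-β, one of the 8 largest increases (log2 change 4.45, SE 0.21, edgeR adjusted p = 7.28e-05). The proteases Adamts8 (2.18, edgeR adjusted p = 0.000123) and Adamts4 (2.13, edgeR adjusted p = 0.00195), the latter an aggrecan-cleaving enzyme, of the same family, rose too. Of 19 matrix metalloproteinases and TIMPs 6 rose and 2 fell, or 3 rose without control replicate 1 and 0 fell without control replicate 2, and 9 had a positive log2 fold change. The median of the 19 was -0.07, and 0.089 and 0.067 on FPKM at pseudocounts of 0.1 and 1. Mmp14, the membrane-bound collagenase, went from 289.8 and 267 to 582 and 658 CPM (log2 change 1.15, SE 0.08, edgeR adjusted p = 0.000201), and Mmp2, the gelatinase it activates, from 315 and 232 to 518 and 612 CPM (log2 change 1.05, SE 0.17, edgeR adjusted p = 0.00394). The inhibitor Timp3 went from 1263 and 1451 to 3618 and 4237 CPM (log2 change 1.53, SE 0.11, edgeR adjusted p = 0.000201). Timp1, an inhibitor typical of reactive astrocytes, had 86.4 and 188 CPM in the controls and 768 and 596 CPM with TGF-β (log2 change 2.31, SE 0.48, edgeR adjusted p = 0.0104), a call lost without control replicate 1 (1.84, adjusted p = 0.053).

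Matricellular proteins, which signal from the matrix without building it, rose in 10 of 16 cases and fell in 1, with a median of 0.74. The CCN proteins Ccn2, also known as connective tissue growth factor, went from 981 and 886 to 3035 and 3771 CPM (log2 change 1.87, SE 0.15, edgeR adjusted p = 0.00028) and Ccn4 from 29.7 and 62.7 to 346 and 365 CPM (log2 change 2.94, SE 0.41, edgeR adjusted p = 0.00212). Thbs2, a thrombospondin, went from 265 and 274 to 887 and 978 CPM (log2 change 1.79, SE 0.09, edgeR adjusted p = 7.28e-05), Thbs1, which can activate latent TGF-β, from 1283 and 1419 to 2378 and 2486 CPM (log2 change 0.85, SE 0.10, edgeR adjusted p = 0.000887), and periostin, Postn, from 43.3 and 57.6 to 149 and 148 CPM (log2 change 1.56, SE 0.21, edgeR adjusted p = 0.00177). Tgfbi, named for its induction by TGF-β, was at 0.47 and did not pass the threshold in RGC-32 KO cells. Fibronectin, Fn1, rose from 2247 and 2620.5 to 4698 and 4658 CPM (log2 change 0.94, SE 0.12, edgeR adjusted p = 0.0013), and 7 of 18 fibronectin and integrin genes rose while 2 fell, or 0 fell without control replicate 1 or either stimulated replicate. Its receptor chain Itga5 rose by 1.81 (edgeR adjusted p = 0.000231) and Itgb3, the partner of αv, by 2.05 (edgeR adjusted p = 0.00028). The common β1 chain, Itgb1, lay just under the fold limit at 0.59 (edgeR adjusted p = 0.00573).

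Contractile genes of the cytoskeleton rose in part. Of 19 tested, 10 rose and 0 fell, with a median of 0.62, and their share of counts went from 1.02% and 1.04% to 1.64% and 1.80%, a gain of 0.690 percentage points that was 0.435 when the 10 genes with the most counts were left out of the list and of the total. Acta2, smooth muscle actin, went from 2055 and 2188 to 4914 and 5464 CPM (log2 change 1.29, SE 0.12, edgeR adjusted p = 0.000369), and Tagln, an actin-bundling protein, from 1606 and 1526 to 3344 and 4052 CPM (log2 change 1.24, SE 0.13, edgeR adjusted p = 0.000693). Actg2, another smooth muscle actin, rose by 2.02 (edgeR adjusted p = 0.00117). Calponin, Cnn1, was at 0.21 and did not pass the threshold, so the smooth muscle genes did not all follow. Of 24 focal adhesion genes 6 rose and 0 fell, among them Actn1, an actin cross-linker (0.92, edgeR adjusted p = 0.000315), Pdlim7 (0.94, edgeR adjusted p = 0.000327) and Tns1, a tensin (0.86, edgeR adjusted p = 0.0022). Of 18 targets of the mechanosensitive factors YAP and TEAD, 3 rose and 0 fell, and 1 rose without stimulated replicate 2. Markers of mural cells, the contractile cells of vessel walls, rose for the most part too. Of 6 tested 5 rose, namely Notch3, Pdgfrb, Anpep, Myh11 and Cspg4, Rgs5 was at 0.03 with a sign that turned under upper quartile scaling, and their summed level went from 204 to 209 CPM in the controls to 496 to 582 CPM with TGF-β. Myh11 lost its call without any 1 of the RGC-32 KO libraries, with adjusted p-values of 0.0756 to 0.178 in edgeR, and without either stimulated WT replicate (0.071 and 0.0714). The mural markers are not separate from the lists above. Myh11 is also a contractile gene, and Cspg4, the largest change among the mural markers at 2.69, was counted with the scar proteoglycans. The part of mural cells in the contractile result was not tested.

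Serum response factor, SRF, drives many contractile genes through the CArG box, and the motif was looked up in promoter windows of RefSeq, from 250 bases before to 50 after each start, on GRCm38.p6. The box was searched as CC, 6 bases of A or T, and GG, which reads the same on both strands. It occurred in the windows of 2.94% of 646 genes that rose, 1.39% of 504 that fell and 1.54% of the 10550 genes tested that have a window, and in 1.63% of all windows of the table. These 5 windows hold at least 1 box. The Srf window holds a second box, and another window of Egr2 holds one too. The 5 are shown because they span genes that rose and genes that did not, with 1 box of each in capitals:
Acta1, chr8:123894829-123894858, minus strand: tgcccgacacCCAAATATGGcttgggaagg
Myl9, chr2:156775293-156775322, plus strand: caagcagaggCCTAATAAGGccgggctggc
Egr2, chr10:67537787-67537816, plus strand: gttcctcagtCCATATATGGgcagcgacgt
Vcl, chr14:20929161-20929190, plus strand: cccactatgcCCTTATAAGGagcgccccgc
Srf, chr17:46556225-46556254, minus strand: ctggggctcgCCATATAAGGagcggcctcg
Acta1, Myl9 and Srf were picked for these sequences after their values were seen. In RGC-32 KO astrocytes skeletal actin, Acta1, rose by 1.78 (edgeR adjusted p = 0.00508), the myosin light chain Myl9 by 0.65 (edgeR adjusted p = 0.00158) and the zinc finger factor Egr2 by 1.39 (edgeR adjusted p = 0.00719), the last without a call when control replicate 2 was left out (1.20, adjusted p = 0.0557). Without stimulated replicate 2 the value of Myl9 was 0.58, under the fold limit though its adjusted p stayed under 0.05. Vinculin, Vcl, was at 0.33 and Srf at 0.07, neither past the threshold, so genes with the box in these windows both rose and did not.

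Transcription factors of mesenchymal cells and of the early response rose in part. Of 18 mesenchymal factors 7 rose and 0 fell. Scx, the tendon factor scleraxis, rose by 2.87 (edgeR adjusted p = 0.000178), Sox11, a factor of neural progenitors, went from 8.17 and 8.70 to 19.6 and 22.1 CPM (log2 change 1.31, SE 0.13, edgeR adjusted p = 0.000497), and Runx1, a partner of SMADs, from 50.1 and 55.3 to 127 and 106 CPM (log2 change 1.14, SE 0.10, edgeR adjusted p = 0.000369). Snai1, the Snail repressor of epithelial genes, had 7.14 and 7.10 CPM in the controls and 13.6 and 11.5 CPM with TGF-β (log2 change 0.82, SE 0.16, edgeR adjusted p = 0.00914), with the call lost without control replicate 2 (0.81, adjusted p = 0.051) or stimulated replicate 1 (0.69, adjusted p = 0.0643). Sox4 was at 0.30, under the fold limit. Of 16 AP-1 and early response genes 5 rose and 1 fell, or 3 rose without WT control replicate 2, WT stimulated replicate 1 or WT stimulated replicate 2. Klf10, an early TGF-β target, rose by 0.97 (edgeR adjusted p = 0.000374), and the AP-1 subunit Fosl1 rose by 1.19 (edgeR adjusted p = 0.00372). Its relative Fosl2 lay under the fold limit at 0.58.

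The AP-1 site TGANTCA, which is the same on both strands, occurred in the promoter windows of 11.9% of the 646 genes that rose, 7.14% of the 504 that fell and 6.7% of the 10550 tested genes with a window. In all windows of the table its share was 7.81%. It is shown for 4 of the genes that rose and are described below or above, with the site in capitals:
Il11, chr7:4778222-4778250, minus strand: aggagggagggTGAGTCAggatgtgtcag
Plaur, chr7:24462403-24462431, plus strand: acccctggagcTGACTCActctttagcaa
Lif, chr11:4257329-4257357, plus strand: ccagtcagctgTGACTCAggccatagtgg
Sphk1, chr11:116531776-116531804, plus strand: gagcgtgtcgcTGAGTCAccttctcggaa
They belong to the IL-6 family cytokines Il11 and Lif, the urokinase receptor Plaur and the sphingosine kinase Sphk1. A match of letters is a description of the window and no test of AP-1 there.

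TGF-β is known to halt division in many cells. Of 10 CDK inhibitors and D cyclins 1 rose and 2 fell, and 0 rose without control replicate 2 or either stimulated replicate. Ccnd1, cyclin D1, fell from 1093 and 1064 to 625 and 667 CPM (log2 change -0.74, SE 0.09, edgeR adjusted p = 0.00123), and so did the CDK inhibitor Cdkn1c (30.9 and 30.01 to 14.7 and 14.8 CPM, log2 change -1.04, SE 0.07, edgeR adjusted p = 0.000178). The inhibitors through which TGF-β arrests epithelial cells lay under the threshold, Cdkn1a at 0.51 (edgeR adjusted p = 0.015) and Cdkn2b at 0.32 (edgeR adjusted p = 0.436). Of 28 cell cycle and mitosis genes 1 rose and 0 fell, while 4 had a positive log2 fold change, and the median was -0.22. The proliferation markers Mki67 at -0.22 and Top2a at -0.21 did not pass the threshold.

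Genes of the mature astrocyte fell in part. Of 24 identity and metabolism genes 5 fell and 0 rose, with a median of -0.31, and 3 fell when any 1 of the RGC-32 KO libraries was left out. Slc1a2, the main glutamate transporter GLT-1, went from 181 and 155 to 94.7 and 100.1 CPM (log2 change -0.79, SE 0.10, edgeR adjusted p = 0.00154). Glul, glutamine synthetase, fell from 432 and 377 to 241 and 266 CPM (log2 change -0.67, SE 0.08, edgeR adjusted p = 0.00123), though without control replicate 1 its value of -0.59 was just under the fold limit. The second glutamate transporter, Slc1a3, was at -0.48 and Aldh1l1, an enzyme of folate metabolism used as an astrocyte marker, at -0.28, both under the fold limit. The intermediate filament genes that rise in reactive astrocytes did not rise, with Gfap at -0.25 (edgeR adjusted p = 0.287) and Vim at -0.51 (edgeR adjusted p = 0.00893). Gfap had 1903 and 2649.6 CPM in the controls and 1834 and 2006 CPM with TGF-β, so its groups overlapped. Over all 10 astrocyte markers tested, 2 fell and 0 rose, and their summed level went from 5342 to 6004 CPM in the controls to 4383 to 4716 CPM with TGF-β.

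Of 16 genes for water, potassium and gap junction channels 5 fell and 0 rose, and 7 had a positive log2 fold change. Fewer of them fell without stimulated replicate 2. Kcnj13, a potassium channel, went from 5.55 and 6.16 to 0.737 and 0.528 CPM (log2 change -3.20, SE 0.27, edgeR adjusted p = 0.000286), one of the 8 largest decreases among genes with at least 1 CPM. Gjb6, the gap junction protein connexin 30, went from 2.74 and 2.78 to 0.603 and 0.462 CPM (log2 change -2.36, SE 0.35, edgeR adjusted p = 0.00281), and the water channel Aqp1 from 36.8 and 42.02 to 16.5 and 7.86 CPM (log2 change -1.69, SE 0.30, edgeR adjusted p = 0.00522). Connexin 43, Gja1, was at 0.33 and Kcnj10, the Kir4.1 potassium channel, at 0.55, while the water channel Aqp4 was at -0.43, none of these 3 past the threshold. Ependymal markers moved with these genes, 4 of 9 falling, or 1 without control replicate 2 and 2 without stimulated replicate 1, with a summed level of 436 to 489 CPM in the controls and 308 to 321 CPM with TGF-β, and with their defining factor Foxj1 at -0.53 (edgeR adjusted p = 0.00643), under the fold limit. The part of ependymal cells in the channel result was not tested.

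Reactive and inflammatory programmes were touched in single genes. Of 13 pan-reactive genes 3 rose and 0 fell, and 1 rose without control replicate 1. Hspb1, the small heat shock protein HSP27, rose by 0.96 (edgeR adjusted p = 0.00212). Of 11 genes of the A2 reactive state, 3 rose and 0 fell, with Sphk1, a sphingosine kinase, from 4.15 and 4.85 to 16.7 and 22.3 CPM (log2 change 2.11, SE 0.17, edgeR adjusted p = 0.000279) and Ptgs2, cyclooxygenase 2, from 61.4 and 100.1 to 238 and 196 CPM (log2 change 1.43, SE 0.23, edgeR adjusted p = 0.0039). Of 11 genes of the A1 state, 1 rose, the matrix gene Fbln5 (1.38, edgeR adjusted p = 0.00315), and 2 fell, or 1 fell without control replicate 1 or stimulated replicate 1. Of 30 interferon response genes 0 rose and 2 fell, or 1 fell without the same libraries, with a median of -0.04. Complement C3, a mark of the A1 state, had 6271 and 4149 CPM in the controls and 4484 and 4046 CPM with TGF-β and did not pass the threshold (log2 change -0.29, SE 0.20, edgeR adjusted p = 0.309). Of 19 genes for chemokines and CSF1, 2 rose and 0 fell, and 0 rose without control replicate 1 or stimulated replicate 1. Cxcl12 at -0.50 and Csf1 at -0.14 were short of the threshold.

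Of 16 genes of the IL-6 family 3 rose and 0 fell. Lif, leukaemia inhibitory factor, went from 12.2 and 27.6 to 98.2 and 84.4 CPM (log2 change 2.19, SE 0.36, edgeR adjusted p = 0.00436). Il11 had 0 and 37 counts in the controls and 224 and 239 with TGF-β, a log2 change of 3.76 (edgeR adjusted p = 0.01) that was 10.94 without control replicate 2, where the remaining control had 0 counts and the value depends on the prior count. In DESeq2 the adjusted p of Il11 was 0.153. Il6 itself had 0 and 15.6 CPM in the controls and 46.9 and 22.7 CPM with TGF-β, and the distance between its controls left it uncalled (log2 change 2.12, SE 1.24, edgeR adjusted p = 0.235). Microglia make such cytokines too. Of 12 microglial markers 0 rose and 0 fell, and their summed level was 1456 to 1599 CPM in the controls and 1211 to 1365 CPM with TGF-β. The part of microglia in the cytokine values was not tested.

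Wnt ligands split by family member. Of 14 tested 5 rose and 3 fell, with 3 rising without stimulated replicate 2. Wnt1, a ligand of the β-catenin branch, had 1 and 2 counts in the control libraries and 30 and 41 with TGF-β, a ratio of 25.6 with an exact 95% interval for counting error of 8.43 to 127.3. That interval leaves out the spread between cultures, so it is too narrow as a range for the response. In edgeR the log2 change of Wnt1 was 4.57. Wnt11, a ligand of the non-canonical branch, went from 1.15 and 2.37 to 9.11 and 9.64 CPM (log2 change 2.40, SE 0.33, edgeR adjusted p = 0.00192). Wnt6 went the other way, by -2.55 on the log2 scale (edgeR adjusted p = 0.000633). Wnt5a, the best known non-canonical ligand, was at 0.15 and did not pass the threshold. Of 16 Wnt inhibitors and feedback targets 4 rose and 2 fell, or 1 fell without control replicate 2 or stimulated replicate 2. Lef1, the nuclear partner of β-catenin, went from 3.44 and 2.66 to 6.97 and 9.71 CPM (log2 change 1.45, SE 0.22, edgeR adjusted p = 0.00301), and Dkk3, of the Dickkopf family, from 143 and 126 to 345 and 349 CPM (log2 change 1.37, SE 0.13, edgeR adjusted p = 0.000428).

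Guidance and juxtacrine genes rose in part. Of 18 Eph receptors and ephrins 5 rose and 1 fell. Ephb1 went from 4.27 and 5.92 to 22.7 and 21.2 CPM (log2 change 2.10, SE 0.16, edgeR adjusted p = 0.000203) and Ephb6 rose by 1.22 (edgeR adjusted p = 0.000408), whereas Efnb3, a ligand of B-type receptors, fell by 1.43 on the log2 scale (edgeR adjusted p = 0.00285). Epha7 was at 0.27 (edgeR adjusted p = 0.303) and Epha4 at 0.42, neither past the threshold. Of 36 Slit, Robo, semaphorin and plexin genes 5 rose and 3 fell, or 1 fell without control replicate 2 or stimulated replicate 1. Sema7a, a membrane semaphorin that signals through β1 integrin, went from 8.61 and 5.39 to 38.1 and 48.1 CPM (log2 change 2.63, SE 0.23, edgeR adjusted p = 0.000349), and Slit3 rose by 1.29 (edgeR adjusted p = 0.00567) and Plxna4 by 1.10 (edgeR adjusted p = 0.00193), with Slit2 at 0.43 under the fold limit. In the Notch pathway, where 3 of 16 genes rose, or 5 without either WT control replicate, and 1 fell, the ligand Jag1 went from 59.97 and 73.98 to 149 and 136 CPM (log2 change 1.09, SE 0.12, edgeR adjusted p = 0.00088) and the receptor Notch3 from 46.5 and 54.98 to 106 and 109 CPM (log2 change 1.08, SE 0.08, edgeR adjusted p = 0.000201). Of their target genes, Hes1 and Hey1 were at 0.37 and 0.39, short of the threshold, while Hes5 fell by 1.95 on the log2 scale. Hes5 was named after its value was seen. The log2 fold changes of the 16 genes ran from -1.95 to 3.15.

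By number of genes rising, secreted growth and trophic factors led the lists outside the matrix, with 11 of 24 rising and 2 falling. Lists differ in length, and 10 of 19 contractile genes rose, beside 6.61% of all genes tested. The count of 11 was the same whichever library was left out. Igf1, insulin-like growth factor 1, went from 93.6 and 110.5 to 352 and 375 CPM (log2 change 1.83, SE 0.09, edgeR adjusted p = 7.28e-05). Vegfa, the vascular growth factor, went from 78.2 and 72.1 to 163 and 154 CPM (log2 change 1.08, SE 0.08, edgeR adjusted p = 0.000189). Edn1, the vasoconstrictor endothelin 1, was low but rose from 1.85 and 2.19 to 5.90 and 6.47 CPM (log2 change 1.61, SE 0.18, edgeR adjusted p = 0.000802). Angpt2, an angiopoietin, fell from 9.82 and 14.1 to 3.35 and 1.52 CPM (log2 change -2.30, SE 0.39, edgeR adjusted p = 0.00451). Of 22 FGF genes 6 rose and 0 fell, with 3 rising without control replicate 1 or stimulated replicate 1. Fgf21, a stress-induced FGF, had 8 and 0 counts in the controls and 57 and 69 with TGF-β (log2 fold change 4.05, edgeR adjusted p = 0.00553, and 9.07 without control replicate 1, where the other control had 0 counts and the value depends on the prior count). Dusp4, a MAP kinase phosphatase, rose by 0.91 (edgeR adjusted p = 0.00412). Of 10 IGF-binding proteins and pappalysins 4 rose and 1 fell, among them Igfbp3, a carrier of IGFs (217 and 192 to 445 and 488 CPM, log2 change 1.19, SE 0.12, edgeR adjusted p = 0.000603).

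Amino acid genes rose in part. Of 23 targets of the stress factor ATF4 and serine synthesis genes, 7 rose and 2 fell, or 0 fell without stimulated replicate 1 and 1 without either control. Pycr1, which makes proline, the amino acid that collagen is rich in, went from 7.34 and 7.28 to 18.96 and 18.5 CPM (log2 change 1.36, SE 0.16, edgeR adjusted p = 0.00107). Slc1a4, a neutral amino acid transporter, went from 76.2 and 73.1 to 173 and 173 CPM (log2 change 1.21, SE 0.08, edgeR adjusted p = 0.000129), and Aldh1l2, a mitochondrial folate enzyme, from 13.2 and 10.7 to 32.02 and 31.8 CPM (log2 change 1.42, SE 0.18, edgeR adjusted p = 0.00137). Psat1, of serine synthesis, went down by 0.63 on the log2 scale (edgeR adjusted p = 0.00114), and its values of -0.57 without control replicate 2 and -0.59 without stimulated replicate 1 were under the fold limit.

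The composite site of ATF4 with C/EBP factors, TGATGNAA, was searched on both strands of the same windows. It occurred in 3.41% of the 646 genes that rose, 3.97% of the 504 that fell and 2.85% of the 10550 tested genes with a window, and in 3.97% of all windows of the table. Of the 20 ATF4 list genes with a window 7 hold it, of which 3 rose and 1 fell, and the sites of the 3 that rose are shown with that of Fgf21, in capitals:
Asns, chr6:7693214-7693243, minus strand: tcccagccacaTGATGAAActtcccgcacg
Slc1a4, chr11:20332699-20332728, minus strand: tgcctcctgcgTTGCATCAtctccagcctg
Pycr1, chr11:120643833-120643862, minus strand: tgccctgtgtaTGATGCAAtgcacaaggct
Fgf21, chr7:45615611-45615640, minus strand: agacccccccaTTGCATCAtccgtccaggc
Asns, asparagine synthetase, was named here after its values were seen and rose by 0.76 (edgeR adjusted p = 0.00284).

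Sterol and fatty acid synthesis genes leaned upward as a list. Of 26 tested 7 rose, 0 fell and all 26 had a positive log2 fold change, with a median of 0.45, though 2 rose without stimulated replicate 2. Cyp51, a demethylase of cholesterol synthesis, went from 86.2 and 82.6 to 146 and 173 CPM (log2 change 0.91, SE 0.13, edgeR adjusted p = 0.00197). Glycolysis showed no such lean, with 1 of 21 rising and 1 falling, the latter Ldhb, a lactate dehydrogenase subunit (509 and 466 to 258 and 294 CPM, log2 change -0.82, SE 0.08, edgeR adjusted p = 0.000569). Among 9 annexins 1 rose, Anxa8, from 9.25 and 7.10 to 74.8 and 73.8 CPM (log2 change 3.19, SE 0.19, edgeR adjusted p = 0.000104).

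Ranked by log2 fold change among genes with at least 1 CPM, the largest increases included Wnt1, Adamtsl2, Fgf21, Cxcr6, Il11, Snx31 and Aldh1a3. Cxcr6, a chemokine receptor, went from 0.319 and 0.888 to 8.78 and 8.72 CPM (log2 change 3.82, SE 0.33, edgeR adjusted p = 0.000326), and Snx31, a sorting nexin, from 0.128 and 0.237 to 2.48 and 2.44 CPM (log2 change 3.69, SE 0.42, edgeR adjusted p = 0.000963). Aldh1a3, which makes retinoic acid, had 0.766 and 6.69 CPM in the controls and 43.3 and 51.8 CPM with TGF-β (log2 change 3.64, edgeR adjusted p = 0.00456, and 5.94 without control replicate 2). Cyp26b1, which degrades retinoic acid, was among the largest decreases, from 170.01 and 183 to 50.6 and 10.4 CPM (log2 change -2.54, SE 0.69, edgeR adjusted p = 0.0292), a call lost without either RGC-32 KO control library (-2.61, adjusted p = 0.0718 and -2.48, adjusted p = 0.0926) and without stimulated replicate 2 (-1.82, adjusted p = 0.0931), and at -4.09 without stimulated replicate 1. With Kcnj13, Wnt6 and Gjb6, the other large decreases were Cldn11, Ranbp3l, Slc22a8 and Serpind1. Slc22a8, an organic anion transporter of brain barriers, went from 3.44 and 2.78 to 0.402 and 0.727 CPM (log2 change -2.44, SE 0.31, edgeR adjusted p = 0.00147), and Serpind1, heparin cofactor II, from 9.25 and 9.77 to 2.14 and 1.52 CPM (log2 change -2.37, SE 0.18, edgeR adjusted p = 0.000204). For Cldn11, the claudin of arachnoid barrier cells and oligodendrocytes, the controls had 46.6 and 53.6 CPM and the stimulated cultures 10.8 and 1.45 CPM, and its change of -3.04 (edgeR adjusted p = 0.0358) became -5.10 without stimulated replicate 1 and lost its call without any of the other 3 RGC-32 KO libraries (-3.15, adjusted p = 0.0819, -2.93, adjusted p = 0.115 and -2.24, adjusted p = 0.153). In DESeq2 the adjusted p of Cldn11 was 0.356.

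The 5 largest gains in mean CPM among genes that rose were those of Acta2 (by 3067 CPM), Sparc (2855), Lox (2846), Timp3 (2571) and Ccn2 (2469). Sparc, a collagen-binding matricellular protein, stood at 5341 and 4902 CPM in the controls and 7500.4 and 8454 CPM with TGF-β, with a log2 fold change of 0.64 (edgeR adjusted p = 0.00553), which was 0.58 without control replicate 2 and 0.53, adjusted p = 0.0535 without stimulated replicate 2, both under the fold limit. Among genes that fell, the 5 largest losses in mean CPM were those of Prdx6, a peroxiredoxin (1362 and 1264 to 641 and 677 CPM, log2 change -0.99, SE 0.07, edgeR adjusted p = 0.000201), the glutathione transferase Gstm1 (1446 and 1355 to 826 and 896 CPM, log2 change -0.70, SE 0.08, edgeR adjusted p = 0.001), Ccnd1, the metallothionein Mt1 (538 and 618 to 351 and 351 CPM, log2 change -0.72, SE 0.12, edgeR adjusted p = 0.00454) and the epoxide hydrolase Ephx1 (-0.64 on the log2 scale, and -0.48 without control replicate 1).

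In WT cultures 1043 genes rose, 7.72% of those tested, and 763 fell, 5.65%. Over the matrix lists 70 genes rose in RGC-32 KO and 68 in WT, 62 of them in both, and 7 and 9 fell, with medians of 0.64 and 0.63. Fibrillar collagens had 7 and 8 rising with medians of 1.18 and 1.35, cross-linking enzymes 13 and 13, contractile genes 10 and 9, ID proteins 3 and 4 falling, astrocyte identity genes 5 and 4 falling, and sterol genes 7 and 10 rising. All these lists were tested in the 4 libraries of each genotype, and a count in one and not in the other is no test of a difference. That test is the interaction of genotype and TGF-β, in which 0 genes of 13509 had an adjusted p under 0.05 in edgeR or DESeq2, and 381, 2.82% of those tested, an unadjusted p under 0.05 in edgeR and 75 in DESeq2.

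For 108 genes chosen as the key members of the lists, the difference between the genotypes was estimated with its 95% interval. The differences of log2 fold change, RGC-32 KO minus WT, ran from -0.48 to 0.46. In edgeR an unadjusted p below 0.05 was found for 3 of the 108 genes, beside 381 of all 13509 genes tested, or 2.82%. For 97 of them the interval stayed within 1 log2 unit of 0, so a difference of 2-fold or more in response lay outside it, and for 11 it reached further. All 52 of these genes that passed the threshold in RGC-32 KO cells passed it in WT cells in the same direction. They were chosen with earlier results of these data known, so nothing is read from that count. Over the matrix lists, 62 of the 70 genes that rose in RGC-32 KO rose in WT, and 5 of the 7 that fell in RGC-32 KO fell in WT. The key genes do not stand for every member of the lists. Over the 148 matrix genes tested the differences ran from -1.15 to 1.15, and 136 were under 0.5 in size. Of these matrix genes 5 had an unadjusted interaction p under 0.05 in edgeR. Notch pathway genes ran from -1.08 to 0.51 and Slit, Robo, semaphorin and plexin genes from -0.93 to 0.52. The 3 key genes with an unadjusted p below 0.05 had a lower log2 fold change in RGC-32 KO than in WT, and nothing is read from their shared direction. Fbn1 rose by 2.02 in RGC-32 KO and 2.46 in WT, a difference of -0.44 (95% interval -0.79 to -0.09, unadjusted p = 0.0203 in edgeR, adjusted p = 1.00). Hspg2 rose by 0.90 and 1.35, a difference of -0.45 (-0.74 to -0.16, unadjusted p = 0.00745 in edgeR, adjusted p = 1.00), and the third was Plxna1, a semaphorin co-receptor, at 0.40 and 0.72, a difference of -0.32 (-0.53 to -0.10, unadjusted p = 0.00873 in edgeR, adjusted p = 1.00). For Fbn2 the values were 0.82 and 1.30 with an interval of -0.99 to 0.04, and for Epha7 0.27 and 0.67 with -0.99 to 0.20. The intervals of Tnc, Il11, Il6, Timp1 and Eln were wide, reaching -1.83 to 1.73 for Tnc and -3.34 to 2.88 for Eln. The controls of these 5 genes stood apart by replicate number in both genotypes, Tnc at 206 and 641 CPM in RGC-32 KO and at 261 and 699 CPM in WT, and Eln at 231 and 26.0 CPM and at 232 and 40.7 CPM. With a term for the replicate number within control and within TGF-β, chosen after seeing the data, the intervals were narrower. The difference in response was 0.0040 for Tnc (95% interval -0.22 to 0.23) and 0.013 for Eln (-0.47 to 0.49). It was 0.032 for Il11 (-0.80 to 0.87), 0.18 for Il6 (-0.23 to 0.58) and -0.20 for Timp1 (-0.45 to 0.05). The term takes up the split by replicate number in these genes, so the narrower intervals follow in part from its choice. The fit with this term also had fewer residual degrees of freedom than the main fit. That edgeR fit gave 0 adjusted interaction p-values under 0.05 and 569 unadjusted ones.

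**Figure D4:**
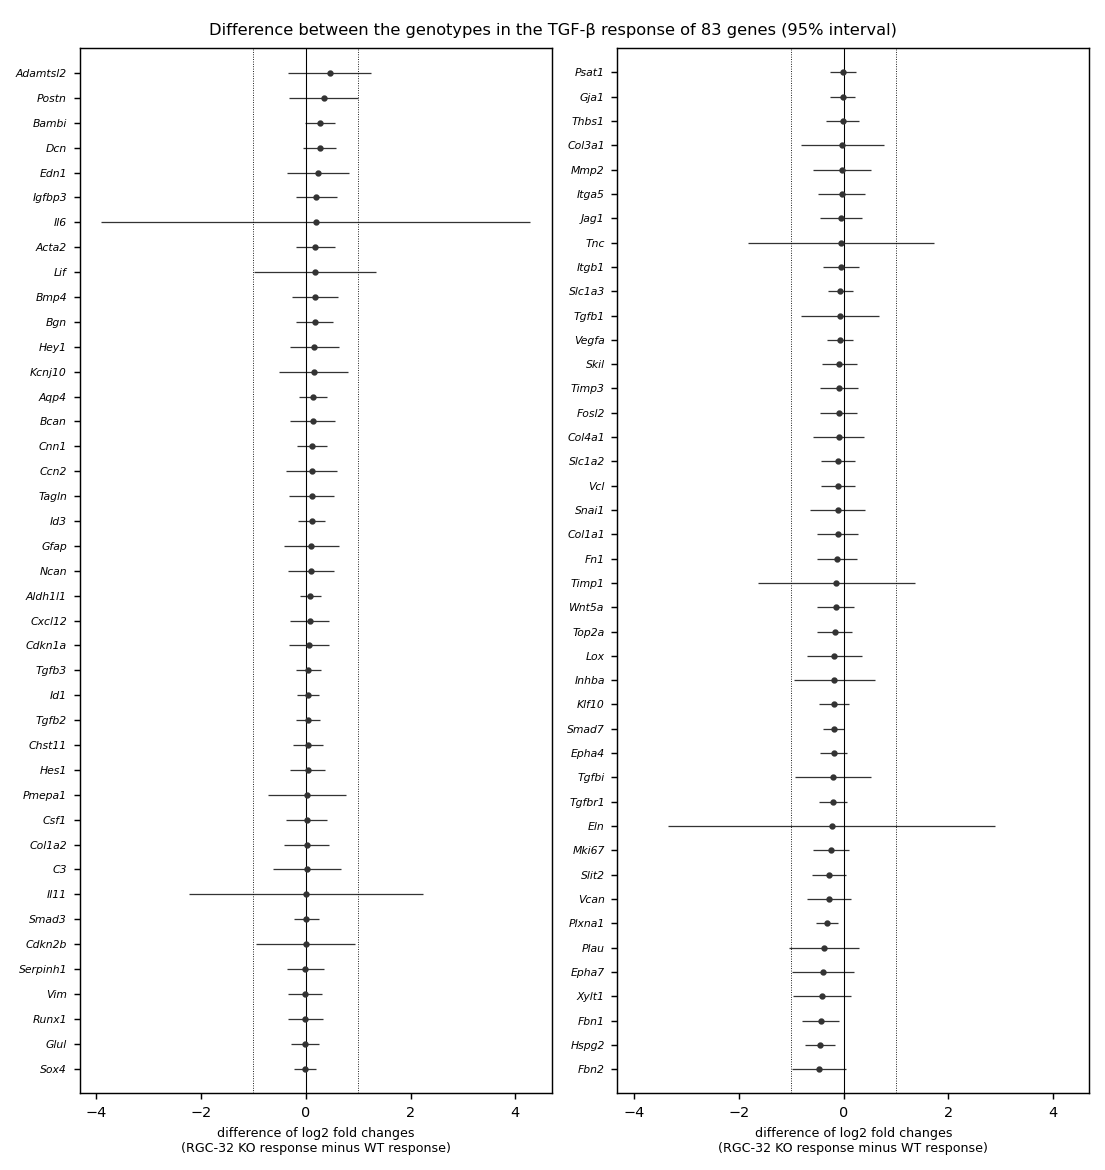
Difference in TGF-β response between the genotypes for 83 of the 108 key genes, those named in the text, as the log2 fold change in RGC-32 KO minus that in WT, with points at the estimate and lines for the 95% interval. Dotted lines mark 1 log2 unit either side of 0, and 74 of the 83 intervals lie between them. The other 9 run past, among them those of Il6, Eln, Il11, Tnc, Timp1, Adamtsl2, Lif and Plau.

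Over all genes, the smallest unadjusted interaction p-values were sought among genes called in RGC-32 KO, whether or not they were called in WT. They were sought as well among genes called in WT with no adjusted p under 0.05 in RGC-32 KO. The genes given here are among those with the smallest. Of the genes called in RGC-32 KO, Egln3, an oxygen-sensing prolyl hydroxylase, fell by 0.82 on the log2 scale in RGC-32 KO and stood at -1.25 in WT (difference 0.43, unadjusted p = 0.00176 in edgeR, adjusted p = 1.00). Lrp1, an endocytic receptor, rose by 0.62 and 1.12 (difference -0.50, unadjusted p = 0.00551 in edgeR, adjusted p = 1.00), with its RGC-32 KO value at 0.48 without control replicate 1, 0.60 without stimulated replicate 2 and no call there or without WT control replicate 2. Of the genes called in WT with no adjusted p under 0.05 in RGC-32 KO, Trpm4, a cation channel activated by calcium, was at 0.28 in RGC-32 KO and 0.84 in WT (difference -0.56, unadjusted p = 0.00256 in edgeR, adjusted p = 1.00). These differences did not pass the adjustment over all genes.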

How the data were processed

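RNA was sequenced from 8 cultures, of which the 4 of RGC-32 KO astrocytes carry the comparison. The authors aligned unstranded reads with STAR, and the submitters' processing notes name mm10, Cufflinks and DESeq too. The counting program and the annotation are not given in the sources used here. The deposited table holds raw counts per gene, and the authors also deposited Cufflinks FPKM values, which were used here only as an alternative. Columns of the authors' own comparisons (fold changes and p-values) were not used. Because the libraries do not mark strand, reads of overlapping or antisense genes cannot be told apart.

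Groups were taken from the labels. Counts were scaled by TMM and fitted in R 4.3.3 with edgeR 4.0.16, by the quasi-likelihood test on all 8 libraries with 4 group means, after the filterByExpr filter, which kept 13509 genes. All 8 libraries share 1 estimate of the spread, on 4 residual degrees of freedom. Adjusted p-values are Benjamini-Hochberg over all genes tested, and the threshold was an adjusted p under 0.05 with a log2 change of 0.6 or more in size. The procedure was tested on simulated data for the RGC-32 KO comparison, with 50 changed genes at each fold. It recovered 46% of the 1.5-fold changes, 90% of the 2-fold and 98% of the 3-fold ones, with 10 false calls among 13433 genes. The interaction was not simulated. limma 3.58.1 and DESeq2 1.42.0 served as alternatives, with log2(FPKM + pseudocount) at pseudocounts of 0.1 and 1, RLE and upper quartile scaling, other filters on low counts, each library left out, and the replicate number as a block. Genes named were the key members of each list, the called genes with the largest log2 fold changes in each list and overall among genes with at least 1 CPM, those with the largest gain or loss in CPM, and those with the smallest interaction p; markers of other cell types came from lists of their own, and further genes are named in the text as chosen after their values were seen. The gene lists and members were chosen with earlier results of these data known. Promoter windows came from RefSeq and cover part of the genes, so motif shares are over genes with a window. The results of some genes are not reported here.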

Additional observations from a re-analysis of the deposited data

How the results depend on the processing

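Of 129 genes named as risen or fallen in RGC-32 KO astrocytes, not counting Hes5, 84 passed the threshold under every alternative and 0 changed direction. DESeq2 lost the calls of 3, Il11, Cldn11 and Myh11, and upper quartile scaling those of 4, Lrp1, Myl9, Sparc and Myh11. Up and down counts were 291 and 76 when the fold limit itself was tested (glmTreat), which lost 42 of those calls, 2243 and 1592 with no fold limit, and with FPKM 675 and 1140 at a pseudocount of 0.1 and 459 and 565 at 1. In WT the same settings gave 357 and 102, 2514 and 1936, 731 and 1157, and 518 and 583. Leaving out each library gave 617 to 912 up and 388 to 722 down in RGC-32 KO, 714 to 1094 up and 486 to 789 down in WT, and 190 to 857 genes with an unadjusted interaction p under 0.05, with 0 adjusted. The share of counts on contractile genes rose by 0.435 percentage points, and that on astrocyte identity genes fell by 0.297, when the 10 genes with the most counts left the list and the total. Deviations of same-numbered libraries correlated at -0.348 between control and TGF-β in RGC-32 KO and -0.343 in WT, but at 0.491 between the genotypes' controls and 0.253 between their TGF-β libraries, so the numbers were not taken to pair control with TGF-β. With the replicate number as a block, 814 genes rose, 555 fell and 212 had an unadjusted interaction p under 0.05, and with the crossed pairing, chosen after seeing the data, 1040, 812 and 680. A replicate block within each treatment, also chosen after seeing the data, gave 569 such interaction p-values, and DESeq2 75. Directions changed for values under the threshold. C3 was at -0.557 to 0.022 over the fits without 1 library. Cdkn2b was at -0.021 to 0.755 over the fits without 1 library. Gfap was at -0.482 to 0.013 over the fits without 1 library. Rgcc was at -0.115 with FPKM at a pseudocount of 0.1, -0.049 with FPKM at a pseudocount of 1 and -0.676 to 0.834 over the fits without 1 library. Rgs5 was at -0.053 under upper quartile scaling, -0.045 with FPKM at a pseudocount of 0.1, -0.025 with FPKM at a pseudocount of 1 and -0.096 to 0.152 over the fits without 1 library. Srf was at -0.015 under upper quartile scaling, -0.037 with FPKM at a pseudocount of 0.1 and -0.036 with FPKM at a pseudocount of 1. The cause was not tested. With 2 libraries a group, list counts of 1 or 2 often moved by 1 when a library was left out.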
